A study of Mus musculus with 15 samples.

Results

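The genes described here encode contractile and cytoskeletal proteins that are used as markers of smooth muscle cells and myofibroblasts. Of 10 listed genes, *Acta2*, *Tagln*, *Cnn1*, *Cnn2*, *Myl9*, *Tpm1*, *Tpm2*, *Cald1*, *Actn1* and *Vim*, those with a row in both expression tables were kept, matched by gene symbol. This left 8 of the 11041 genes found in both tables. *Tagln* was in the culture table only, which gave 9 genes of 11677 for the cultures and 8 of 11299 for the regions. *Cnn1* was in neither table, and only its promoter was searched. The tables hold genes that passed the authors' filter on low CPM (read counts scaled to a common library size), so the members were chosen by a measured level in these same samples, and the presence of a gene is not a result. The list itself was drawn up with results of these data known, and the counts of its members below are therefore descriptions.

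Sequencing of transcript 3′ ends gave the RNA levels of 15 samples of 21EM15, an established mouse lens epithelial cell line, titled WT throughout and with no added agent named for any of these groups. The 2D group (n = 4) was grown on dishes to near confluence, and the 3D group (n = 4) was made of pools of 60 spheroids (organoids) grown without attachment for 10 days. The Internal (n = 4) and External (n = 3) groups were the innermost and outermost regions of such organoids, cut from frozen sections by laser capture microdissection with 120 organoids pooled for each replicate. The region RNA was extracted with another kit than the culture RNA, and whether same-numbered internal and external samples came from the same pool is not stated in the sources used here. A further external sample was not analysed here. The study set it aside because its expression differed from that of the other 3. The external samples were thus kept by their likeness in expression, which can narrow the spread among them. The whole set comes from a single line, so that p-values measure the spread between pools or dishes of that line.

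Contractile cells shorten by sliding myosin along filaments of actin. *Acta2* encodes the smooth muscle actin that assembles into stress fibres in myofibroblasts, *Myl9* a regulatory light chain of myosin, and the tropomyosins, caldesmon, calponins and transgelin are proteins that bind the actin filament and set how myosin reaches it. Many of these genes are switched on by serum response factor (SRF) with its actin-sensing cofactors, and in the lens the appearance of alpha smooth muscle actin is the usual sign of epithelial to mesenchymal transition.

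Reads recovered over the genes kept in a table totalled 7305053 to 9362587 per library in 2D and 7727642 to 8364276 in 3D. They totalled 4256391 to 11702504 for internal and 4044230 to 6086089 for external samples. Reads of genes removed by the filter are not included. Total reads and shares of all reads below refer to these totals. The library of 2D replicate 3 stood apart, with 190 listed genes at 0 reads against 21 to 68 in the other dishes, and with 1 read of the lens gene *Prox1* against 327 to 355. Of 14 lens markers looked for, 6 were in the culture table and 7 in the region table, *Pax6*, *Six3* and *Cryab* among them, while *Foxe3* and *Cdh1* were in neither. Of 9 smooth muscle genes looked for, 5 were in the culture table and 3 in the region table. *Smtn*, which encodes smoothelin, had group means of 6.15 to 6.92 log2 CPM, while *Myh11*, *Des* and *Myocd* were in neither table. Of 7 leukocyte and endothelial markers only *Cd68* was in a table, with a mean of at most 1.03 log2 CPM in any group. *Tagln* was counted in 2 to 25 reads per 2D sample and in 4 to 6 reads per 3D sample. The genes are described as contractile genes of a lens line, without a smooth muscle or myofibroblast label for the cells.

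The question asked of the regions was how expression differs between the core and the outer layers of the organoid. *Acta2* was 5.9-fold lower in the internal region, and *Cnn2* and *Tpm1* were also lower, by 1.89-fold and 1.53-fold. The other members did not pass the test, and *Vim* and *Cald1* had mean levels within 0.2 on the log2 scale of each other in the 2 regions. All values are log2 CPM as deposited, fold changes are internal minus external on that scale, and the test was limma's moderated linear model over all genes of the table with Benjamini-Hochberg adjustment.

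*Acta2* (ENSMUSG00000035783, chr19:34241090-34255590, minus strand, GRCm38) stood at 6.80, 7.0, 6.56 and 6.70 log2 CPM in the internal samples 1 to 4 and at 9.16, 9.19 and 9.63 in the external samples 1 to 3. Every internal sample was below every external sample, and the gap between the groups was wider than the range within either. These levels rest on 412 to 1250 reads per internal and 2690 to 3463 reads per external library. The fold change was -2.56 (SE 0.15, 95% interval -2.88 to -2.24, adjusted p = 5.53e-11), which placed *Acta2* at rank 6 by p among the 11299 genes tested. Leaving out each of the 7 samples in turn gave values from -2.65 to -2.41. In bulk samples such as these, fewer cells that express a gene and less RNA per cell cannot be told apart.

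*Cnn2* (ENSMUSG00000004665, chr10:79988584-79996062, plus strand) encodes calponin 2, an actin-binding protein of non-muscle as well as muscle cells. It stood at 7.96, 7.73, 7.56 and 7.59 log2 CPM in the internal and at 8.57, 8.33 and 8.98 in the external samples, with no overlap. Its fold change of -0.92 (SE 0.16, 95% interval -1.25 to -0.59, adjusted p = 0.000158) was below the 2-fold threshold, and it passed that threshold when internal replicate 1 (-1.0) or external replicate 2 (-1.07) was left out. *Tpm1* (ENSMUSG00000032366, chr9:67022590-67049406, minus strand) encodes alpha-tropomyosin. Its levels were 7.65, 7.76, 7.42 and 7.66 log2 CPM in the internal and 8.22, 8.10 and 8.39 in the external samples. The groups again did not overlap, with a fold change of -0.62 (SE 0.14, 95% interval -0.91 to -0.32, adjusted p = 0.00288). The adjusted p of *Tpm1* was over 0.01 in 5 fits, at 0.0199 without external replicate 3, 0.0101 without internal replicate 3, 0.0228 with the replicate number as a block, 0.0119 with total reads as library size and 0.0533 without the variance trend of the model, and that of *Cnn2* rose to 0.0322 without the trend.

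Their promoters are shown because the 3 genes moved in the same direction and because SRF acts through a known DNA element, the CArG box. The windows run from 250 bases before to 50 bases after the annotated start, in the direction of the gene, and come from RefSeq on GRCm38. Capitals mark a CArG box, a CArG box with 1 C or G among its 6 central bases, or the letters GGAATG, the core of the motif bound by the TEAD factors that partner YAP. *Myl9*, whose regional difference did not pass the test, is added for comparison. The windows are chr19:34255324-34255623 for *Acta2*, chr10:79988350-79988649 for *Cnn2*, chr9:67049164-67049463 for *Tpm1* and chr2:156775214-156775513 for *Myl9*.
Acta2: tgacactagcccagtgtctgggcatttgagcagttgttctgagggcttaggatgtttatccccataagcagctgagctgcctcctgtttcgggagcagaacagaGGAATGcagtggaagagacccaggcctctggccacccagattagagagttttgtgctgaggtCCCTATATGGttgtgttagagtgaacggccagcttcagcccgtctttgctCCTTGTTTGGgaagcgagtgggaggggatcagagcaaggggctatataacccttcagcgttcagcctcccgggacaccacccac
Cnn2: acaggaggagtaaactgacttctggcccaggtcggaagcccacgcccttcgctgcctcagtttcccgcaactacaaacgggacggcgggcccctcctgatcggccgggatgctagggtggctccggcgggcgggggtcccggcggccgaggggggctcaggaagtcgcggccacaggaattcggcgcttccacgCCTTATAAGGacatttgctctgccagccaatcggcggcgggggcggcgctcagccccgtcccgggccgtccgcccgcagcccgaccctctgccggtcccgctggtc
Tpm1: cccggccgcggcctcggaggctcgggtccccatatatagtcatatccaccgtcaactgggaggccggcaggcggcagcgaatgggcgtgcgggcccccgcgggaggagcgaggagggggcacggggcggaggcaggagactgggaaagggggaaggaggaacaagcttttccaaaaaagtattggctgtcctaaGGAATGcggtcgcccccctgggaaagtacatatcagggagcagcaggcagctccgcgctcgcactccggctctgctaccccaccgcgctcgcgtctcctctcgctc
Myl9: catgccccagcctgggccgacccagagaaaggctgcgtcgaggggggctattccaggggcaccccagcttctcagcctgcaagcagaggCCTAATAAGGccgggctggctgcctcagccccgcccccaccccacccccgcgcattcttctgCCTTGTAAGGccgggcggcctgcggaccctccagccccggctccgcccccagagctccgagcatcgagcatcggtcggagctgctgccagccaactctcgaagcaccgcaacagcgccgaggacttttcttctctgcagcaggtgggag

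In the *Cnn2* window the CArG box CCTTATAAGG began 56 bases before the start, and in the *Myl9* window CCTAATAAGG began 161 bases before it. The *Acta2* window held no strict match but 2 forms with a single C or G in the centre, CCCTATATGG at 84 and CCTTGTTTGG at 34 bases before the start, and *Myl9* held another, CCTTGTAAGG, at 99. GGAATG lay 146 bases before the start of *Acta2*, 56 before that of *Tpm1* and 153 before the first of the 2 *Cald1* starts. The CArG box reads as a CArG box on both strands, GGAATG was searched on both strands, and no matches overlapped. Among all 32851 promoter windows the strict box was in 1.63%, the form with 1 C or G in 8.50% and GGAATG in 14.7%. Of the 9 listed genes with a window, which lack *Tagln* and include *Cnn1*, strict boxes were in 2, the relaxed form in 2 and GGAATG in 3. The relaxed form was added after the strict search had been seen. These are matches of letters, and no binding was measured. The RefSeq starts lie 217 bases for *Acta2*, 193 for *Tpm1*, 44 for *Myl9* and 16 for *Cnn2* downstream of the 5′ end of the GENCODE gene given above or below. By the GENCODE end the matches of *Acta2* and *Tpm1* lie inside the gene, between 71 and 183 bases in, and those of *Cnn2* and *Myl9* lie before it. No pattern was common to *Acta2*, *Cnn2* and *Tpm1*.

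*Tpm2* and *Myl9* were the members with the fewest reads. *Tpm2* (ENSMUSG00000028464, chr4:43514711-43523765, minus strand), which encodes beta-tropomyosin, was counted in 0, 0, 0 and 62 reads in the internal and in 27, 14 and 13 reads in the external samples. Internal replicate 4, at 2.44 log2 CPM, lay above all 3 external samples (2.25, 1.74 and 1.92), while the other internal samples held no read. A count of 0 allows up to 3 reads, and the internal group holds both extremes of the gene. The fitted fold change of -2.65, which depends on the prior count, had a limma adjusted p of 0.0838, and it was -3.69 both without internal replicate 4 (adjusted p = 0.0178) and in the fit with a replicate block (adjusted p = 0.0225). Over all alternatives it ranged from -4.08 to -1.79. *Myl9* (ENSMUSG00000067818, chr2:156775420-156781658, plus strand) stood at 4.07, 4.56, 3.02 and 2.37 log2 CPM internally and at 4.11, 4.49 and 5.23 externally. The groups overlapped through internal replicate 2, and the fold change was -1.11 (SE 0.43, 95% interval -2.0 to -0.21, adjusted p = 0.0713). Over all alternatives the fold change of *Myl9* ranged from -1.46 to -0.73. It was -0.73 both without internal replicate 4 (adjusted p = 0.211) and with a replicate block (adjusted p = 0.3).

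The actin cross-linker *Actn1* (ENSMUSG00000015143, chr12:80167547-80260371, minus strand) stood at 9.24, 9.35, 9.46 and 9.19 log2 CPM in the internal and at 9.80, 9.69 and 9.43 in the external samples. The ranges met at external replicate 3, and the fold change of -0.33 had a 95% interval of -0.60 to -0.05 (adjusted p = 0.0833). *Actn1* overlaps an annotated gene on its own strand, *Gm47765*, and 16 of the 1515 stretches of 50 nt at its transcript ends occur in *Actn4* too, so that a small part of its reads may not have been assigned. *Cald1* (ENSMUSG00000029761, chr6:34598500-34775473, plus strand) encodes caldesmon, and its internal values of 9.44 to 9.66 log2 CPM overlapped the external ones of 9.59 to 9.96. Its fold change was -0.19 (95% interval -0.47 to 0.08, adjusted p = 0.327). *Vim* (ENSMUSG00000026728, chr2:13573927-13582826, plus strand) encodes vimentin, the intermediate filament protein of mesenchymal and lens cells. It stood at 12.51, 12.60, 12.29 and 12.02 log2 CPM in the internal and at 12.56, 12.11 and 12.13 in the external samples, with a fold change of 0.09 (95% interval -0.24 to 0.42, adjusted p = 0.745). The intervals of *Cald1* and *Vim* leave out any change of 2-fold in either direction, while those of *Tpm2* and *Myl9* do not.

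**Figure D1:**
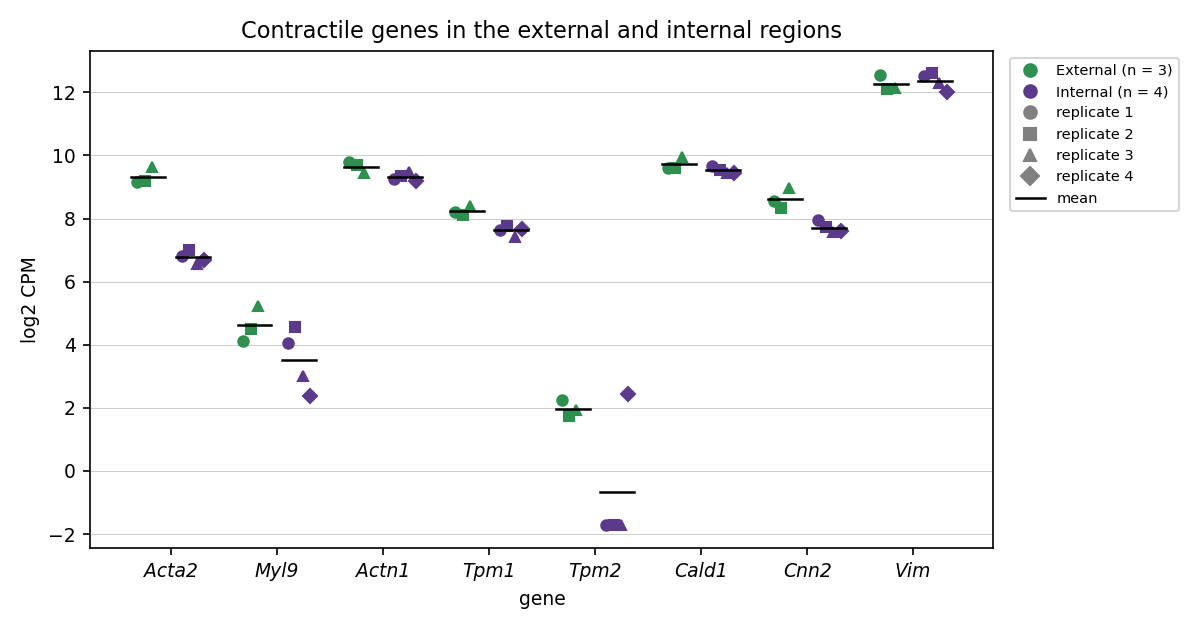
Log2 CPM (y axis) of the 8 contractile genes (x axis) in each external (green) and internal (purple) sample, with the marker shape for the replicate and a bar for the mean. *Acta2* shows the widest separation, with internal values of 6.56 to 7.0 against 9.16 to 9.63, and *Tpm2* has 3 internal samples without a read and 1 at 2.44.

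By the threshold of an adjusted p under 0.01 and a log2 fold change over 1, 1 member of 8, *Acta2*, was lower in the internal region, beside 4.35% of all genes tested. No member was higher, beside 3.27% of all genes. An unadjusted p under 0.05 was found in 6 of the 8 members, none of them higher, and in 3793 of all 11299 genes. The limma voom fit on recovered reads called the same numbers. At an adjusted p under 0.01 with any fold change, 3 members were lower, beside 7.88% of all genes, and none was higher, beside 5.20%. The groups did not overlap in 3 members, each of them lower, beside 15.4% of all genes that were lower without overlap and 13.5% that were higher. The fold change was negative in 7 of 8 members and in 47.1% of all genes, and the median was -0.77 for the members and 0.04 for all genes. Of all genes, 370 were called higher and 491 lower, a split that became 473 and 393 with total reads as library size. Since the list was drawn up with earlier results known, these counts describe it and test nothing.

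*Vim* supplied between 57.2% and 75.7% of the reads of the 8 genes in the region libraries. The other 7 genes together took 0.205%, 0.206%, 0.191% and 0.185% of all reads in the internal samples and 0.292%, 0.267% and 0.311% in the external ones. The ranges did not overlap. *Acta2* alone took 0.00968% to 0.0133% of the internal and 0.0557% to 0.0732% of the external reads.

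Each member was then set against a relative in the same sample, as a difference in log2 CPM that does not depend on the library scaling. *Acta2* minus *Actb*, the gene of the ubiquitous beta-actin, was -5.68 ± 0.23 (SD, n = 4) internally and -4.04 ± 0.17 (SD, n = 3) externally, a change of -1.63 by a two-sided exact permutation test with p = 0.0571. *Actb* itself was lower in the internal region (fold change -0.93, adjusted p = 6.89e-05), as was *Actg1*, the cytoplasmic gamma-actin gene (-1.29, adjusted p = 0.000112). The ratio therefore shows how much further *Acta2* fell than *Actb* did. *Acta2* minus *Actg1* changed by -1.27 and *Cnn2* minus *Cnn3* by -1.21, both without overlap and both with an exact permutation p = 0.0571. *Cnn3*, which encodes another calponin, had a fold change of 0.29 (adjusted p = 0.12), so that *Cnn2* gave 22.0% to 28.1% of the reads of the pair internally and 38.6% to 52.1% externally. *Acta2* gave 1.65% to 2.34% of the reads of *Acta2*, *Actb* and *Actg1* internally and 5.24% to 6.42% externally. The Wilson 95% intervals of single samples, which cover counting error only, reached at most 2.48% internally and began at 5.08% externally.

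*Tpm1* minus *Tpm4*, the latter a tropomyosin gene of non-muscle cells, was higher internally by 0.36 without overlap (exact permutation p = 0.0571), because *Tpm4* was lower there by more (-0.97, adjusted p = 0.000233) than *Tpm1*. *Vim* minus *Nes* was higher internally by 1.49 without overlap (exact permutation p = 0.0571). *Nes*, which encodes nestin, a partner of vimentin in intermediate filaments, was lower in the internal region (-1.40, adjusted p = 2.71e-07). With 4 samples against 3 the smallest p such a test can give is 0.0571, so no regional ratio could pass 0.05. After adjustment over the 19 ratios of both comparisons no ratio of either could have passed 0.05 at these sample numbers, and the ratios are read by their size and overlap. Every non-overlapping regional ratio had an adjusted p of 0.181. The ratios *Actn1* minus *Actn4* (-0.12), *Myl9* minus *Myl12a* (-0.06), *Tpm1* minus *Tpm2* (2.04) and *Tpm2* minus *Tpm3* (-1.80) overlapped between the regions. Of the transcript ends of *Actg1*, *Cnn3*, *Myl12a*, *Tpm3* and *Myl6*, between 18.6% and 42.8% of the 50 nt stretches occur in other genes or pseudogenes, and reads from these were lost where only unique alignments were kept, so that their values are uncertain. In *Actb* and *Tpm4* this share was 8.96%. Those of *Acta2*, *Cnn2*, *Tpm1* and *Vim* had no such stretch.

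**Figure D2:**
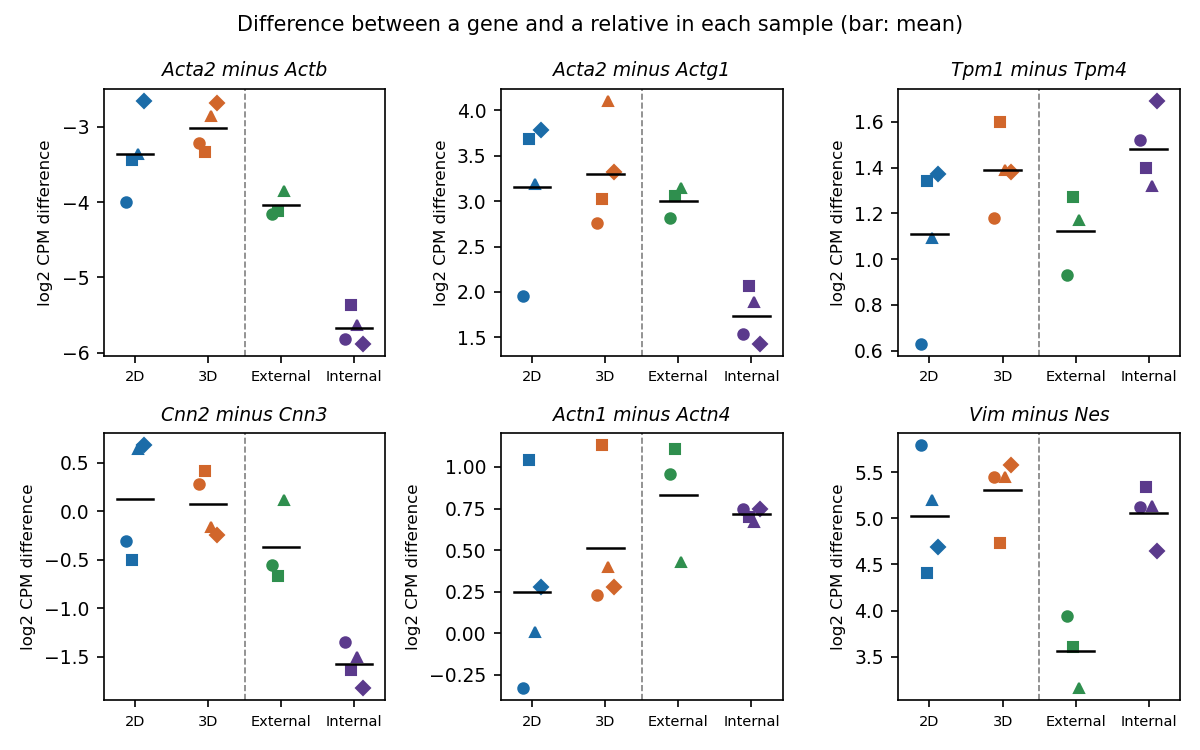
Difference in log2 CPM (y axis) between a contractile gene and a relative in each sample of the 4 groups (x axis), with the marker shape for the replicate and a bar for the mean; the dashed line parts the 2 separately normalized tables. *Acta2* minus *Actb* and *Cnn2* minus *Cnn3* are lower in every internal than in every external sample, by means of 1.63 and 1.21 in size, and *Vim* minus *Nes* is higher by 1.49.

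Genes that work with the members were looked up in lists written for this tissue. These lists too were chosen with results of these data known, so their counts are descriptions. Over all genes, 4.35% were lower and 3.27% higher by the full threshold of adjusted p and fold change. At an adjusted p under 0.01 with any fold change the shares were 7.88% and 5.20%. Of the relatives of the members (other actins, tropomyosins, calponins, light chains and filament proteins), 3 of 11 in the table were lower by the full threshold, *Nes*, *Actg1* and *Myl6* (-1.19, adjusted p = 3.07e-05), and 7 of 11 at an adjusted p under 0.01. None was higher at either setting. Of 28 genes of stress fibres and focal adhesions, 3 were lower and none higher. *Ankrd1*, a target of YAP and of stretch, fell by 3.49 (adjusted p = 1.71e-07), the actin cross-linker filamin A gene *Flna* fell by 1.23 (adjusted p = 1.93e-06) and *Csrp2* fell by 1.2 (adjusted p = 1.26e-05). *Ankrd1* was counted in 57 to 89 reads per internal and 366 to 664 reads per external library. The fold change was negative in 24 of these 28 genes, beside 47.1% of all genes, with a median of -0.45 beside 0.04 for all genes. Of 20 genes of myosin and its regulators 1 was lower, *Diaph3*, a formin that builds actin filaments (-2.53, adjusted p = 1.36e-05), and none was higher by the full threshold. At an adjusted p under 0.01 with any fold change 5 were lower and 1 higher, *Rhob* (0.97, adjusted p = 0.000948), and of the stress fibre and adhesion genes 7 were lower and none higher.

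*Srf* itself was in neither table. Of 6 genes of SRF partners in the table, *Elk4* was higher (1.33, adjusted p = 0.00583) and none was lower by the full threshold. *Elk3* was lower without overlap at a fold change under 2 (-0.89, adjusted p = 0.000399). The *Elk4* call was lost in 8 of 18 alternative fits, among them those without internal replicate 1, 2 or 4 or external replicate 1 or 2 and limma voom (adjusted p up to 0.0409). The SRF cofactor genes *Mrtfa* (-0.25) and *Mrtfb* (-0.04) had adjusted p-values of 0.425 and 0.927. None of the 3 smooth muscle genes in the table was called by limma or limma voom, with 1 of them at an unadjusted p under 0.05. Of 18 fibroblast genes 2 were higher in the internal region and 4 lower, beside 3.27% and 4.35% of all genes. Those higher were *Postn* (2.73, adjusted p = 1.37e-09) and *Col3a1* (1.59, adjusted p = 3.68e-05), which encode matrix proteins, and the *Col3a1* call was lost without the variance trend (adjusted p = 0.0312). Those lower included *Lox* (4, 0, 0 and 0 reads internally and 44, 10 and 30 externally, adjusted p = 0.00875), *Col1a1* (-1.56, adjusted p = 0.000206) and *Tnc* (-1.14, adjusted p = 0.00107), of a collagen cross-linking enzyme and matrix proteins, and limma voom called 2 of the 4. The *Lox* call was lost in 11 of 17 alternative fits, among them those without any 1 sample other than internal replicate 1 (adjusted p up to 0.0812). The *Tnc* call was lost in 4 of 18, those without internal replicate 2, external replicate 1 or external replicate 2 and without the variance trend (adjusted p up to 0.0497). Without the trend the calls of *Col1a1*, *Actg1*, *Myl6*, *Diaph3* and *Flna* were lost too (adjusted p = 0.0116 to 0.0265), and that of *Myl6* also without external replicate 3 (-0.96). *Postn* and *Col3a1* thus changed in the opposite direction to *Acta2* between the regions. Of 7 lens markers in the table, 3 were higher internally and none lower, and limma voom called 2 of them. Their part in the difference of *Acta2* was not tested.

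**Figure D3:**
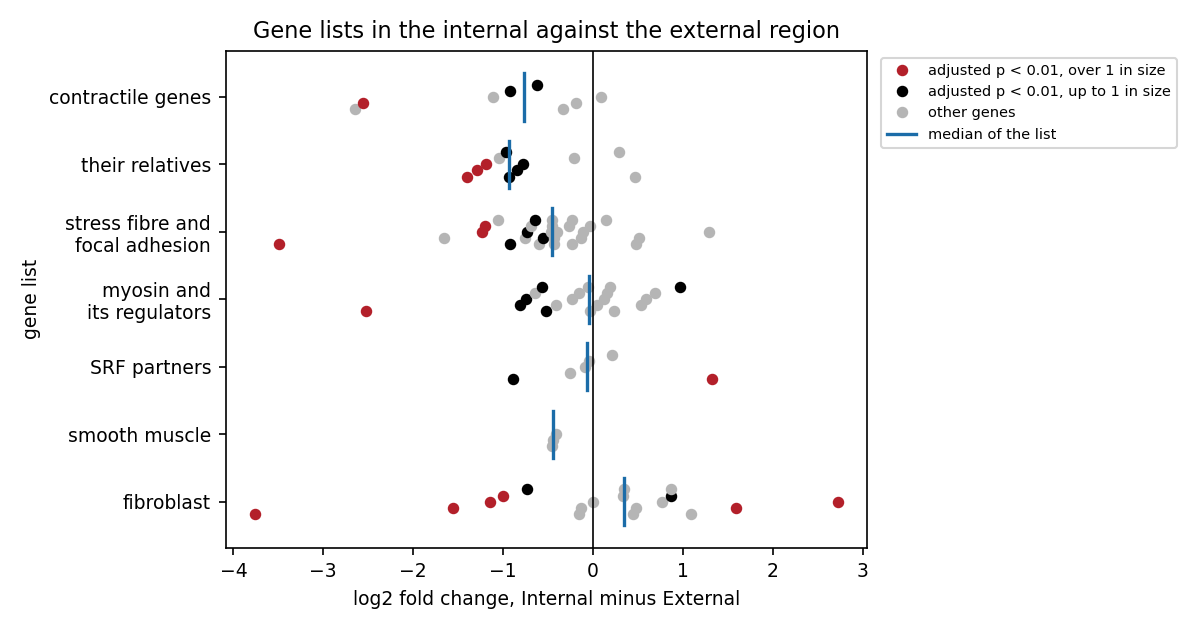
Log2 fold change, internal minus external (x axis), of every gene in the table from each of 7 lists (y axis); each point is a gene, coloured by whether it passed the adjusted p and size thresholds, and the bar is the median of the list. The medians are -0.77 for the contractile genes, -0.93 for their relatives and -0.45 for the stress fibre and adhesion genes, and the fibroblast genes lie on both sides.

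The genes whose profile was most like that of *Acta2* over the 7 region samples were found by the mean absolute difference of gene-centred log2 CPM, among 9918 other genes whose mean log2 CPM was 2 or more. They were *Timp1* (0.130), *Ercc1* (0.133), *Tubb6* (0.135), *Tubb4b* (0.164) and *Gabra2* (0.178). Their fold changes lay between -2.71 and -2.37. The samples fall into the 2 groups compared, so that this likeness is mostly the size of the regional difference.

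The cultures were compared to see what growth in 3D changes. No contractile gene was called in either direction. Several members spread more widely among the 2D dishes than among the 3D pools, in part through a single dish, replicate 4, and this spread was not tested. *Acta2* stood at 9.54, 10.43, 10.76 and 11.93 log2 CPM in the 2D samples 1 to 4 and at 10.07, 9.96, 10.35 and 10.43 in the 3D samples. The 2D values spanned a 5.24-fold range and enclosed the 3D values, which spanned 1.39-fold. The fold change, 3D minus 2D, was -0.46 (SE 0.40, 95% interval -1.34 to 0.41, adjusted p = 0.444), and it was -0.04 without 2D replicate 4 and -0.84 without 2D replicate 1 (adjusted p = 0.0889).

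The same dish was high in other members. *Actn1* stood at 9.24, 9.19, 9.45 and 10.47 log2 CPM in 2D and at 9.36 to 9.68 in 3D. *Tpm1* stood at 8.50, 8.46, 8.67 and 9.50 in 2D and at 8.48 to 8.61 in 3D. *Myl9* stood at 4.59, 5.23, 4.51 and 6.26 in 2D and at 4.52 to 4.97 in 3D. In these 3 genes the first 3 dishes lay near the 3D samples, and replicate 4 lay above all of them. Their fold changes were -0.07 for *Actn1* (95% interval -0.62 to 0.48, adjusted p = 0.871), -0.23 for *Tpm1* (-0.69 to 0.23, adjusted p = 0.467) and -0.41 for *Myl9* (-1.16 to 0.34, adjusted p = 0.43). Without 2D replicate 4 they were 0.22, 0.01 and -0.04. Replicate 4 was the highest 2D sample for 6 of the 9 members, 16 of 28 stress fibre and adhesion genes, 11 of 20 genes of myosin and its regulators, 7 of 13 relatives, 5 of 19 fibroblast genes, 2 of 6 SRF partners and 2 of 5 smooth muscle genes, and for 23.6% of all genes. The cause of its higher values was not tested.

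*Vim* stood at 13.39, 12.54, 13.07 and 13.03 log2 CPM in 2D and at 12.78 to 13.22 in 3D (fold change 0.04, 95% interval -0.42 to 0.51, adjusted p = 0.904). *Cnn2* stood at 8.69, 8.16, 9.16 and 9.12 in 2D and at 8.51 to 8.87 in 3D (-0.06, 95% interval -0.52 to 0.40, adjusted p = 0.863). *Cald1* stood at 9.23 to 9.72 in 2D and at 9.35 to 9.80 in 3D (0.19, 95% interval -0.14 to 0.52, adjusted p = 0.395). In these 3 genes the groups overlapped and replicate 4 did not stand alone. The intervals of *Vim*, *Cnn2*, *Cald1*, *Actn1* and *Tpm1* leave out a 2-fold change in either direction, while those of *Acta2*, *Myl9*, *Tagln* and *Tpm2* do not.

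The scarce members were *Tpm2* and *Tagln*. *Tpm2* was counted in 137, 164, 1 and 61 reads in the 2D samples and in 29 to 65 reads in the 3D samples. The single read of 2D replicate 3, the library that stood apart, decided its fold change, which was 0.13 with all samples (adjusted p = 0.943) and -1.17 without that dish (adjusted p = 0.0948). *Tagln* (ENSMUSG00000032085, chr9:45929619-45936058, minus strand), which encodes transgelin, was counted in 6, 18, 2 and 25 reads in 2D and in 4, 4, 4 and 6 in 3D. Its fold change of -0.74 had a 95% interval of -2.11 to 0.64 (adjusted p = 0.44). Leaving out samples in turn gave -1.23 to -0.37, the lowest without 2D replicate 3 and the highest without 2D replicate 4. *Tagln* overlaps *Pcsk7* and *Gm48529* on the other strand, and only reads in the sense orientation had been counted.

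**Figure D4:**
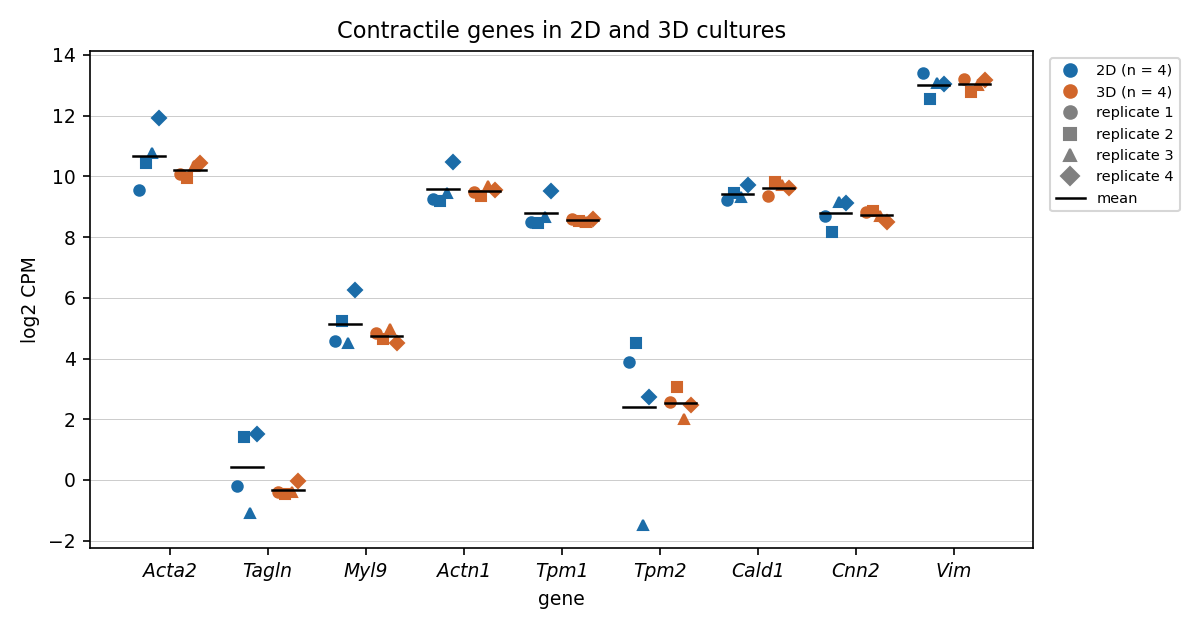
Log2 CPM (y axis) of the 9 contractile genes in the culture table (x axis) in each 2D (blue) and 3D (orange) sample, with the marker shape for the replicate and a bar for the mean. In *Acta2* the 2D samples span 9.54 to 11.93 and the 3D samples 9.96 to 10.43, in *Cald1* the spans are alike, and 2D replicate 4 is the highest dish in 6 of the 9 genes.

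By the full threshold no member was higher in 3D, beside 2.92% of all genes tested, and none was lower, beside 1.51%. No member had an unadjusted p under 0.05 with limma, beside 3930 of all 11677 genes, and limma voom called none either. In all 9 members the groups overlapped, while in 24.0% of all genes they did not. The SD was larger in 2D than in 3D for 9 of 9 members and for 68.1% of all genes. Its median was 0.60 in 2D and 0.20 in 3D for the members, and 0.33 and 0.25 for all genes. Without 2D replicate 3 the SD was larger in 2D for 9 members and 66.7% of all genes, and without replicate 4 for 8 members and 63.4%, with a member median of 0.43 in 2D, settings chosen after seeing the data. *Cald1* differed little, with a range of 1.41-fold in 2D and 1.37-fold in 3D. These are descriptions of 4 dishes and 4 pools of 60 organoids each, and the cause of the difference in spread was not tested.

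**Figure D5:**
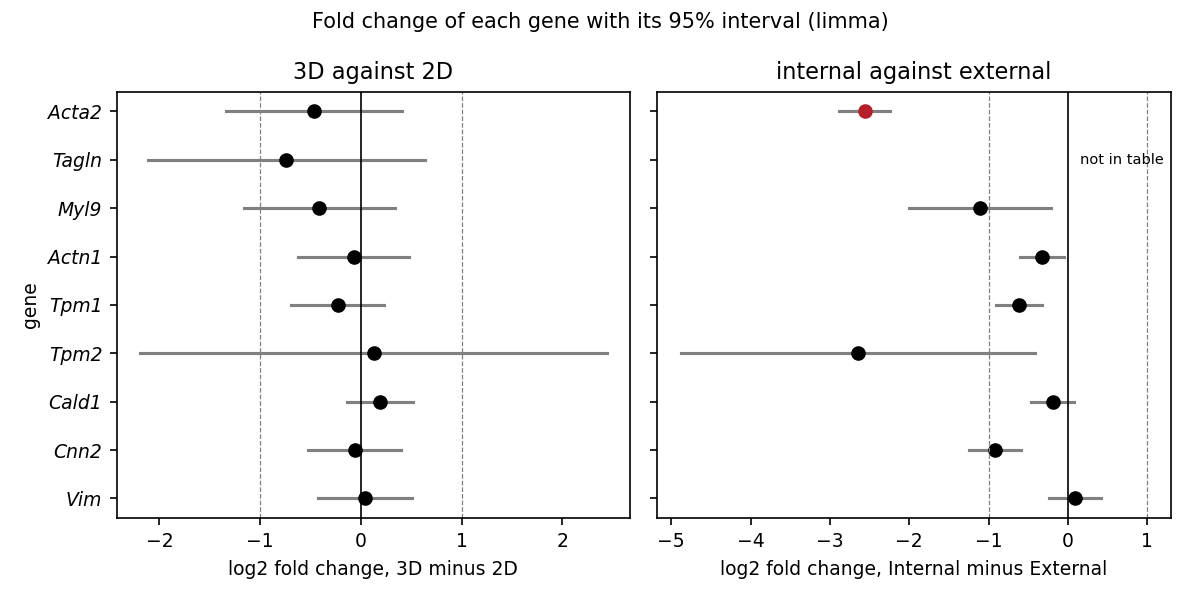
Log2 fold change (x axis) of each contractile gene (y axis) with its 95% interval, for 3D against 2D on the left and internal against external on the right; dashed lines mark 2-fold and red marks an adjusted p under 0.01 with a change over 2-fold. Only *Acta2* in the regions is red (-2.56), and every interval of the culture comparison includes 0.

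Ratios to relatives did not separate the cultures. The smallest exact permutation p among the 10 culture ratios was 0.0571, for *Myl9* minus *Myl12a* (-0.71), where 0.0286 was the smallest attainable with 4 against 4 before adjustment. *Acta2* minus *Actb* was -3.02 ± 0.30 (SD, n = 4) in 3D and -3.37 ± 0.55 (SD, n = 4) in 2D (exact permutation p = 0.286). *Acta2* made up 5.80% to 13.5% of the reads of the 3 actin genes in 2D and 8.93% to 13.3% in 3D. *Actb* itself had a fold change of -0.81 (adjusted p = 0.0352), with no overlap between the groups. *Actg2*, the smooth muscle gamma-actin gene and a relative named after its values were seen, was counted in 10, 12, 227 and 39 reads in 2D and in 6, 1, 1 and 0 in 3D, with no overlap. Its fold change of -3.27, which depends on the prior count, had an adjusted p of 0.0273, over the threshold of 0.01 and under 0.05, and its highest value was in 2D replicate 3. No relative of 13 and no stress fibre or adhesion gene of 28 was called in 3D against 2D, with 3 and 10 of them at an unadjusted p under 0.05 and none called by limma voom in either list. Over all genes, 3930 of 11677 had an unadjusted p under 0.05.

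Of the 20 genes of myosin and its regulators, *Rhob*, a small GTPase gene, was higher in 3D (1.5, adjusted p = 0.00135) and *Diaph3* lower (-1.22, adjusted p = 0.000727). Over all genes, 2.92% were higher and 1.51% lower by the full threshold. No SRF partner gene of 6 and no smooth muscle gene of 5 was called by limma or limma voom, with 3 and 2 at an unadjusted p under 0.05. Of 19 fibroblast genes 5 were higher in 3D and none lower, with *Dcn* (5.86, adjusted p = 0.00287), *Postn* (4.19, adjusted p = 0.00146) and *Col3a1* (2.49, adjusted p = 0.00384) the largest. Without overlap 8 of the 19 were higher and 2 lower, beside 1397 and 1407 of all 11677 genes. Those 2 were *Col1a2* (-1.47, adjusted p = 0.0574, on 2 to 26 reads per sample) and *Cdh2* (-0.68, adjusted p = 0.0214). The fold change was negative in 6 of the 19. The *Dcn* and *Col3a1* calls were each lost in 6 of 19 alternative fits, at adjusted p-values of up to 0.0149 and 0.0183, among them the fits without 2D replicate 4 or 3D replicate 1, 3 or 4. *Dcn* was counted in 238, 72, 2 and 43 reads in the 2D samples, and its fold change was 4.74 without 2D replicate 3 and 6.65 without 2D replicate 1. *Dcn*, *Postn* and *Col3a1* rose in 3D in samples where *Acta2*, *Tpm1*, *Cnn2* and *Vim* did not pass the test. The genes most like *Acta2* over the 8 culture samples, among 9891 others, included *E130309D02Rik* (mean absolute difference 0.212), *Gadd45g* (0.225), *Lmf2* (0.241) and *Ddah1* (0.248).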

How the data were processed

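The authors trimmed QuantSeq 3′ reads, aligned them with STAR 2.7.8a to GRCm38.p6, kept unique sense alignments, counted them with featureCounts 1.6.0 and removed genes with low CPM. The annotation release is not given in the sources used here. The deposited log2 CPM (a prior of 2 reads, as found from the values) stand in 2 tables normalized separately, so that tests were made within a table. The authors' columns of fold changes and p-values were not used. Whole reads were recovered from the log2 spacing for every value (tolerance 0.02 reads).

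Genes were tested with limma 3.58.1 (R 4.3.3; variance trend, two-sided, Benjamini-Hochberg over all genes of a table), tested on simulated data, and called at an adjusted p under 0.01 and a log2 fold change over 1. A count of 0 was read as up to 3 reads. Ratios were tested by exact permutation (scipy 1.17.1). Positions are from GENCODE vM21 and promoters from RefSeq, both on GRCm38. The members and lists were chosen with earlier results of these data known. Named genes were the members, their ratio partners, per list other than the lens and leukocyte or endothelial markers, comparison and direction the 3 largest non-overlapping calls, and the 5 most like *Acta2*, of which 1 in the cultures is not reported here. *Foxe3*, *Cdh1*, *Pax6*, *Six3*, *Cryab*, *Cd68*, *Mrtfa*, *Mrtfb*, *Srf* and the smooth muscle genes were named as markers, cofactors or SRF itself. *Elk3* and *Rhob* in the regions and *Col1a2* and *Cdh2* in the cultures were named after their values were seen. The alternatives were a replicate block, no trend, a robust prior, other thresholds, a filter on low means, median centring, total reads as library size, prior counts of 0.5 and 5 reads, limma voom on recovered reads, and leaving out each sample.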

Additional observations from a re-analysis of the deposited data

Results flagged for a closer look

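Among 26 sets of 4 samples looked at (each member in the 2D, 3D and internal groups), 2 held a sample whose gap to the next was large for the range of its group by Dixon's 95% criterion, which chance passes in about 1 set in 20. *Tpm2* in internal replicate 4 stood at 2.44 log2 CPM (62 reads), while the other 3 internal samples held 0 reads. *Tagln* in 3D replicate 4 stood at -0.02 log2 CPM (6 reads), with 4 reads in each of the other 3D samples. In the external group, with 3 samples, no such gap was looked for.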

How the results depend on the processing

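The count of members called was 0 in 3D against 2D, in each direction, under every alternative run. In the regions 1 member, *Acta2*, was called lower. The count was 3 with no fold change threshold and ranged from 1 to 2 when samples were left out in turn, with *Cnn2* added. The *Acta2* call kept its direction and its side of the threshold under all 18 alternatives, with fold changes from -2.65 to -2.41 and adjusted p-values up to 0.00114. None of the 33 named region genes changed direction. In the cultures 8 of 27 named genes, all of them uncalled, changed direction somewhere. Leaving out samples in turn gave ranges of -0.27 to 0.06 for *Cnn2*, -0.34 to 0.01 for *Tpm1*, -1.17 to 0.83 for *Tpm2*, -0.20 to 0.22 for *Actn1*, -0.11 to 0.17 for *Vim*, -0.08 to 0.11 for *Cnn3*, -0.07 to 0.55 for *Myl12a*, and -0.51 to 0.02 for *Ddah1*. *Tpm2* also turned to -0.07 with a prior count of 5 reads and *Cnn3* to 0.01 with median centring. The culture ratios that changed sign when samples were left out ranged from -0.25 to 0.36 for *Acta2* to *Actg1*, -1.17 to 0.90 for *Tpm1* to *Tpm2*, -0.84 to 1.03 for *Tpm2* to *Tpm3*, -0.27 to 0.13 for *Cnn2* to *Cnn3* and -0.80 to 0.04 for *Tagln* to *Tagln2*. The region ratios that did so ranged from -0.32 to 0.02 for *Actn1* to *Actn4* and from -0.67 to 0.90 for *Myl9* to *Myl12a*.

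Whether equal replicate numbers pair the samples was checked by correlating their deviations from the group means, which gave 0.227, 0.503, 0.066 and 0.005 in the cultures and -0.044, -0.065 and -0.063 in the regions. Numbers 1 and 2 were the 2 highest of the 16 culture correlations, but not every pair exceeded 0.1 and the sources do not say what a number marks, so the samples were not treated as pairs. Whether the culture samples are paired is not known. With the replicate block, *Acta2* was at -2.54 in the regions (adjusted p = 7.36e-07), *Cnn2* at -0.88 (0.00459) and *Tpm1* at -0.63 (0.0228), and no count of members past both thresholds changed, while *Tpm1* no longer had an adjusted p under 0.01. Using total reads as library size shifted the median fold change of all genes in the regions from 0.04 to 0.15, where *Tpm1* was at -0.51 (adjusted p = 0.0119). Over all genes, the region calls (370 higher and 491 lower) became 117 and 207 without the variance trend, and the culture calls (341 and 176) ranged from 112 and 49 without 3D replicate 3 to 644 and 334 at an adjusted p under 0.05. With the replicate block the culture calls were 389 and 213. Depth limits *Tagln* and *Tpm2*, with 25 and 62 reads at most in any 2D and internal sample respectively.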
